A study of Rattus norvegicus with 14 samples.

Results

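The genes of vesicle release and the synapse were followed across the rat pineal gland, the retina and mixed tissue. They were taken by gene symbol: synaptotagmins (Syt), VAMP proteins (Vamp), syntaxins (Stx), syntaxin-binding proteins (Stxbp), SNAP proteins (Snap), complexins (Cplx), synapsins (Syn), SV2 proteins (Sv2), Rab3 GTPases (Rab3), Unc13 and Rims genes, Bsn and Pclo. This rule used no measured value and found 72 of 16472 genes, listed as 79 transcripts. FPKM (fragments per kilobase of transcript, scaled to the fragments mapped in a library) was summed over the transcripts of a gene.

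All animals were untreated Sprague-Dawley rats aged 6 to 8 weeks under a daily cycle of 14 h light and 10 h dark. Pineal glands and retinas were each collected at zeitgeber time (ZT, hours after lights on) 1, 7 and 13, while lights were on, and 15, 19 and 23, while they were off, with 1 library from a pool of 10 animals for each tissue and time. Mixed tissue without the pineal gland was collected from 3 rats at ZT7 and from 3 at ZT19, giving 1 library each. Each mixed pool held equal amounts of RNA from 15 tissues, among them brain regions, spinal cord, pituitary, adrenal gland, the retina itself, and organs with few neurons such as liver and heart, so a mixed value is an average over tissues rich and poor in synapses.

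Regulated secretion uses a related set of proteins in neurons, photoreceptors and endocrine cells. A VAMP protein on the vesicle and a syntaxin with a SNAP25-type protein on the plasma membrane form the SNARE complex that drives fusion. Syntaxin-binding proteins chaperone the syntaxin, Unc13 proteins prime the vesicle, complexins clamp and assist the complex, and synaptotagmins couple it to calcium. Rims, Bsn and Pclo build the active zone where vesicles dock, while Rab3, SV2 proteins and synapsins sit on the vesicle. Photoreceptors and bipolar cells of the retina release glutamate at ribbon synapses, and pinealocytes, which are related to photoreceptors, contain synaptic ribbons too.

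Summed FPKM ranged from 152281 to 212634 per library, and 8852 to 11399 genes reached 1 FPKM. Values near the worth of 1 fragment in a 1 kb transcript (estimated at 0.0216 to 0.0527 FPKM) carry large counting error. Pinealocyte and rod markers followed the labels. The 4 pinealocyte markers summed to 4034 to 4619 FPKM in pineal glands, 7.78 to 15.3 in retinas and 1.87 to 2.46 in mixed tissue, and the 5 rod markers to 6.51 to 19.2, 12010.0 to 16170.0 and 1276 to 1662 in the same tissues. Cone markers did not separate the tissues in this way. The 4 summed to 424.6 to 600 FPKM in pineal glands and 68.1 to 91.1 in retinas, with 2 higher and 2 lower in the pineal gland. Lens transcripts were most abundant in the retina libraries of ZT19 and ZT1 (984 and 410.3 FPKM, against 54.9 to 169.9 in the other retinas). Fewer cells of a type and less RNA per cell cannot be told apart in these bulk samples.

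Together the 72 genes gave 2123 to 2255 FPKM in the pineal libraries, 2028 to 2367 in the retinas and 1525 to 1873 in the mixed pools. This was 1.2% to 1.36% of all FPKM in pineal glands, 1.27% to 1.35% in retinas and 0.8% to 0.88% in mixed tissue, so the shares of pineal gland and retina overlapped. Fewer of the genes were expressed in the pineal gland: 53 averaged at least 1 FPKM there, 66 in the retina and 69 in mixed tissue. Over all genes, 9172 averaged at least 1 FPKM in pineal glands and 9507 in retinas. Single libraries had 8852 to 9336 genes at this level in pineal glands and 9380 to 9593 in retinas. The mixed pools had 11399 and 11225. The tissues thus stood in the same order over all genes. In the pineal gland the 8 most abundant members, among them Snap25, Vamp2, Cplx3, Syt1, Rab3a, Cplx4 and Syt4, made up 77.5% of the members' summed mean FPKM. In the retina the leading 8 included Snap25, Vamp2, Cplx4, Syt1, Rab3a, Sv2b and Sv2a and made up 64.4%. In mixed tissue they included Snap25, Vamp2, Rab3a, Vamp1, Cplx1, Syt1 and Syt11 and made up 55.8%. The map of all members by library shows blocks of genes near 0 in every pineal library beside genes that were high in both tissues.

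**Figure D1:**
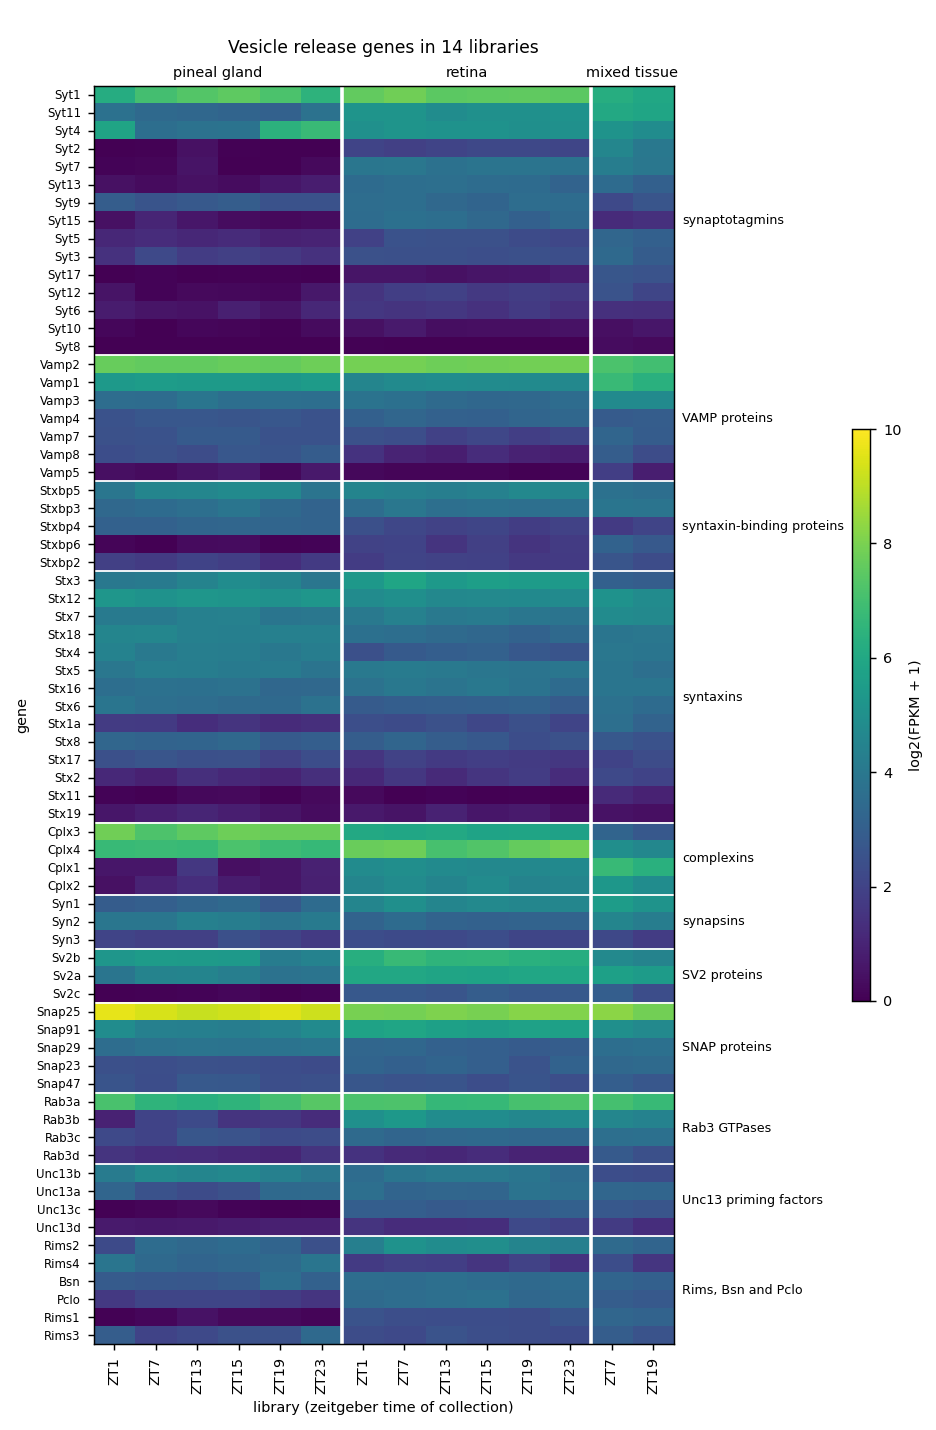
Colour gives log2(FPKM + 1) of 70 genes (rows, by family) in the 14 libraries (columns, 6 pineal, 6 retina and 2 mixed). Snap25 is the brightest row in the pineal gland, between 570.3 and 782 FPKM, while Syt2, Syt7, Unc13c, Rims1 and Sv2c are dark there and lit in the retina.

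Which of these genes set the pineal gland apart from the retina was asked with the 6 times of each tissue as its libraries (limma on log2(FPKM + 1), Benjamini-Hochberg adjustment over the 11656 genes tested, threshold 0.05). 67 of the 72 members passed the filter of 1 FPKM in 2 libraries, 1 of them (Syt17) only through the mixed pools. Syt8, Syt10, Vamp5, Stx11 and Stx19 did not, and their highest value in any library was 2.61 FPKM. 53 of the 67 differed, where 68.9% of all tested genes did: 16 were higher in the pineal gland (36.9% of all tested genes) and 37 were lower (32%). The median log2 difference, pineal gland minus retina, was -0.55 over the members tested and 0.03 over all tested genes. Of 13 synaptotagmins tested, 12 were lower in the pineal gland and none higher, and all 3 SV2 genes were lower. Syntaxins (6 higher and 4 lower of 13), VAMP proteins (3 higher and 2 lower of 6) and SNAP proteins (2 higher and 2 lower of 5) were split. In what follows a signed value with ± in parentheses after a gene is its log2 difference of FPKM + 1 with the SE, pineal gland minus retina unless another pair is named, and FPKM means carry the SD over libraries. The pools stand for different times of day, so p-values measure the spread over pools and times together.

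**Figure D2:**
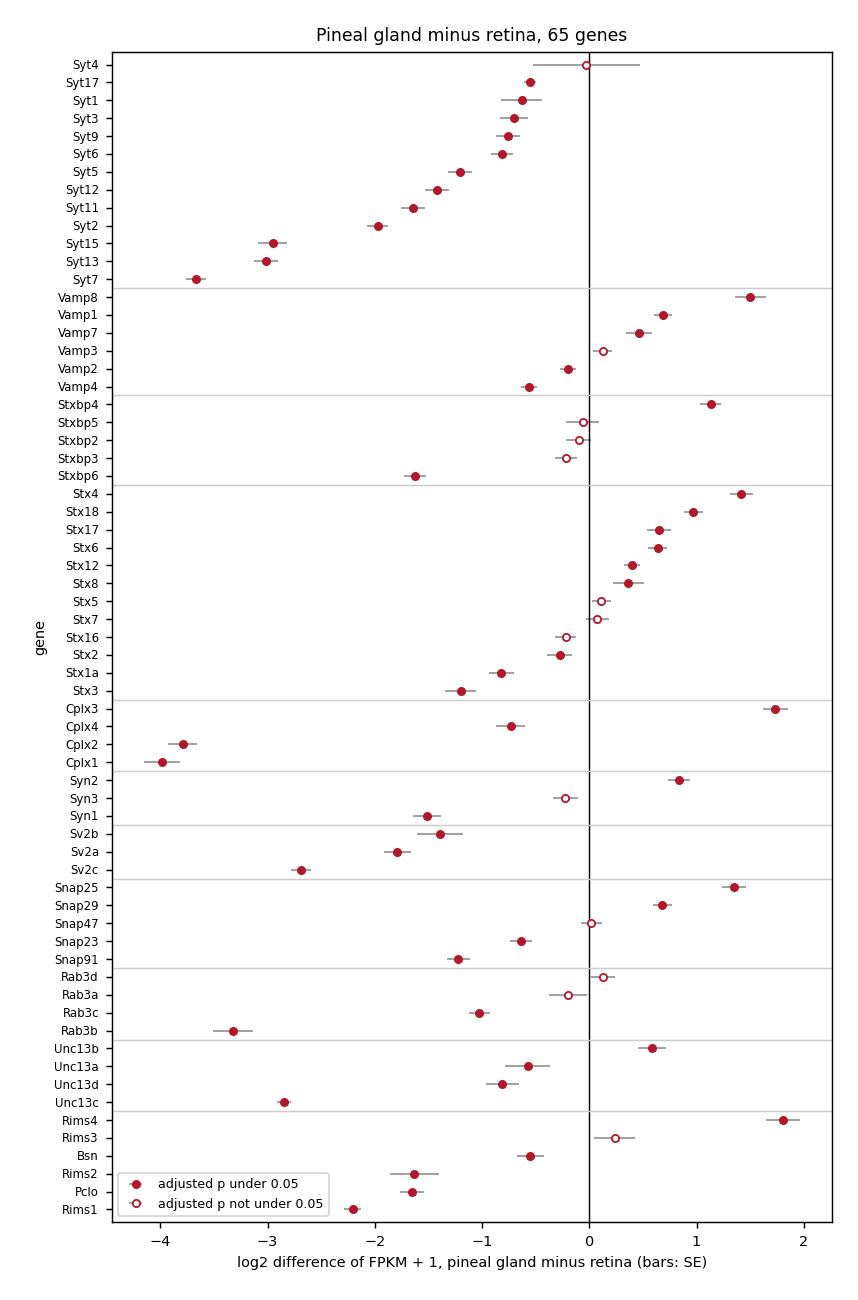
Points are log2 differences of FPKM + 1, pineal gland minus retina, for 65 genes, with SE bars from the fit over 14 libraries, and filled points have an adjusted p under 0.05. Complexins span the widest range, from Cplx3 at 1.73 to Cplx1 at -3.98, and 12 of 13 synaptotagmins lie left of 0 as filled points.

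Among the SNARE proteins of the plasma membrane, Snap25, the neuronal and endocrine partner of syntaxin (chr3:124806637-124894653, rn4), had the highest mean of all members in each tissue. Its lowest, median and highest FPKM were 570.3, 649.9 and 782 in pineal glands and 240.3, 258 and 289 in retinas, and the mixed pools of ZT7 and ZT19 had 305 and 235. Every pineal library lay above every retina and mixed library. The log2 difference was 1.35 ± 0.11 against the retina (SE, adjusted p = 3.55e-08), and Snap25 alone took 26.8% to 34.7% of the members' FPKM in pineal glands and 10.2% to 14% in retinas. Snap23, the relative found in most cell types, averaged 4.29 ± 0.238 FPKM in pineal glands and 7.32 ± 1.33 in retinas (SD, n = 6 each) and was lower in the pineal gland (-0.64 ± 0.10, adjusted p = 6.58e-05). Snap29, a SNARE of intracellular fusion, was higher in the pineal gland (0.68 ± 0.09), and Snap47 did not pass (adjusted p = 0.878). Snap91, which has a SNAP symbol but encodes the clathrin assembly protein AP180, averaged 21.9 ± 4.28 FPKM in pineal glands and 51.6 ± 3.89 in retinas (-1.22 ± 0.11).

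The syntaxins of the plasma membrane split by type. Stx4, known best from secretion outside neurons, had 14.9, 17.9 and 20.5 FPKM (lowest, median, highest) in pineal glands, against 4.38, 5.88 and 7.58 in retinas. It separated the tissues without overlap (1.42 ± 0.11, adjusted p = 1.78e-08). Stx3, the syntaxin of retinal ribbon synapses, was lower in the pineal gland, with 14.3, 18.6 and 28.2 FPKM, against 39.4, 42.3 and 58.4 in retinas (-1.2 ± 0.15, adjusted p = 3.46e-06). Stx1a, a neuronal form, had 1.37 to 2.34 FPKM in pineal glands and 3.19 to 4.58 in retinas (-0.82 ± 0.12). As shares of the summed FPKM of Stx1a, Stx2, Stx3 and Stx4, Stx3 made up 48.1% and Stx4 44.2% in pineal glands. In retinas Stx3 made up 79.4% and Stx4 10.5%, and in mixed tissue Stx3 made up 20.7% and Stx4 41.3%.

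Several syntaxins of internal membranes were higher in the pineal gland. Stx18 of the endoplasmic reticulum (0.97 ± 0.09), Stx17 of autophagosomes (0.65 ± 0.11), Stx6 of the trans-Golgi network (0.64 ± 0.09) and the endosomal Stx12 (0.4 ± 0.07) and Stx8 (0.37 ± 0.15, adjusted p = 0.038) passed, while Stx5, Stx7 and Stx16 did not. The Stx8 call was lost without any 1 of 7 libraries (pineal ZT1, ZT7, ZT13 or ZT15, or retina ZT15, ZT19 or ZT23).

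Of the vesicle SNAREs, Vamp2, the form of neuronal and endocrine vesicles, was close between the tissues, with 192 to 219.6 FPKM in pineal glands and 223 to 240.3 in retinas (-0.2 ± 0.07, adjusted p = 0.0244). That call was lost without the pineal library of ZT13 (adjusted p = 0.0507). Vamp1, another neuronal form, was higher in the pineal gland (42.4 ± 2.43 FPKM, against 26 ± 1.99 in retinas, 0.69 ± 0.08), and all of these values lay below the 110.1 and 80.8 FPKM of the mixed pools. Vamp8, a SNARE of endosomes and of exocrine and immune granules, was higher in the pineal gland by 1.5 ± 0.14 (adjusted p = 1.91e-07), with 4.06 to 6.45 FPKM against 0.785 to 1.79 in retinas. Microglial markers differed the same way, all 4 being higher in the pineal gland with a summed level of 15.4 to 25.8 FPKM, against 3.74 to 5.93 in retinas. The 2 blood markers summed to 575 to 1106 FPKM in pineal glands and 42.4 to 83.1 in retinas. The part of such cells in the Vamp8 difference was not tested.

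Among the syntaxin-binding proteins, Stxbp2, Stxbp3 and Stxbp5 (tomosyn, which competes with VAMP for the SNARE complex) did not pass. Stxbp4, a partner of Stx4, was higher in the pineal gland, with 7.5 to 8.74 FPKM against 2.5 to 4.38 in retinas (1.13 ± 0.10). Stxbp6 (amisyn), with 0 to 0.243 FPKM in pineal glands and 1.86 to 3.04 in retinas, was lower (-1.62 ± 0.10).

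The tissues differed in which complexins prevailed. Cplx3, a complexin of retinal ribbon synapses (chr8:61354177-61360939, rn4), had 145, 209 and 226 FPKM in pineal glands (lowest, median, highest), against 52.5, 57.6 and 65.2 in retinas, and the mixed pools had 8.23 and 5.73. Every pineal library was above every retina library, and the log2 difference was 1.73 ± 0.12 (adjusted p = 2.85e-09). Cplx4, the other ribbon complexin (chr18:62536597-62552045, rn4), was abundant in both tissues and lower in the pineal gland, with 104, 109 and 142 FPKM against 135, 204 and 235 in retinas (-0.73 ± 0.14, adjusted p = 0.00020). The complexins of conventional synapses were near 0 in the pineal gland. Cplx1 had 0.337, 0.507 and 2.11 FPKM in pineal glands and 24.3, 26.5 and 29.9 in retinas (-3.98 ± 0.17, adjusted p = 1.23e-11), with 104 and 79.5 in the mixed pools. Cplx2 had 0.379, 0.762 and 1.51 FPKM in pineal glands and 21.4, 22.3 and 27.4 in retinas (-3.79 ± 0.14, adjusted p = 1.79e-12). Of the summed complexin FPKM, Cplx3 and Cplx4 took 63.1% and 36.4% in pineal glands, 19.8% and 63.3% in retinas, and 4.38% and 16.8% in mixed tissue, where Cplx1 led with 58%. Markers of inner retinal neurons differed between the tissues to varying degrees. The 4 ganglion cell markers found summed to 2.95 to 5.91 FPKM in pineal glands and 207 to 250.5 in retinas, with all 4 lower in the pineal gland. The 6 bipolar cell markers summed to 92.05 to 139.2 FPKM in pineal glands and 178.8 to 212.2 in retinas. Of these, 3 were lower and 1 higher in the pineal gland. The 5 amacrine and horizontal cell markers found summed to 44.8 to 65.9 FPKM in pineal glands and 189 to 230.3 in retinas, and 4 of the 5 were lower in the pineal gland. Among them Gad1 averaged 0.139 FPKM in pineal glands and 57 in retinas, Slc6a9 25.7 in pineal glands and 71.3 in retinas, and Calb1 20.04 in pineal glands and 18.04 in retinas. The part of such cells in the retinal values of Cplx1, Cplx2 and the genes described next was not tested.

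The 250 bases before the start of the ribbon complexin genes are shown because these were the most abundant complexins in both tissues (RefSeq, GRCr8, each on the gene's strand). Capitals mark an E-box (CACGTG) in Cplx3 and a TAATCC, the site of the photoreceptor and pineal factors OTX2 and CRX, in Cplx4.

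Cplx3: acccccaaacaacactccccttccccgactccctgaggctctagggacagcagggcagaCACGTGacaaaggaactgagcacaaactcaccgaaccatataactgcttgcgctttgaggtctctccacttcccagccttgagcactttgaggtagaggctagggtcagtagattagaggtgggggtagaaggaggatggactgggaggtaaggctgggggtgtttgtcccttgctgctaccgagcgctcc

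Cplx4: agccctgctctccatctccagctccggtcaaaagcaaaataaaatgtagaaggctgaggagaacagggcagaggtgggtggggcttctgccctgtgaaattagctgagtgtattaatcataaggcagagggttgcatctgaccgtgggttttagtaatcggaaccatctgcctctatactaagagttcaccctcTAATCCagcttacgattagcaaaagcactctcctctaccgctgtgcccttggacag

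They lie at chr8:66906201-66906450 and chr18:61767755-61768004, both on the minus strand. Searched on both strands of these 250 bases, CACGTG was held by 5.59% of the 33469 promoters in the table and by 5 of the 57 members with an entry (Cplx3, Snap29, Stx6, Stxbp2 and Syt6). TAATCC was held by 6.34% of promoters and by 2 members (Cplx4 and Rims3). A match of letters is a description, and binding was not measured.

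**Figure D3:**
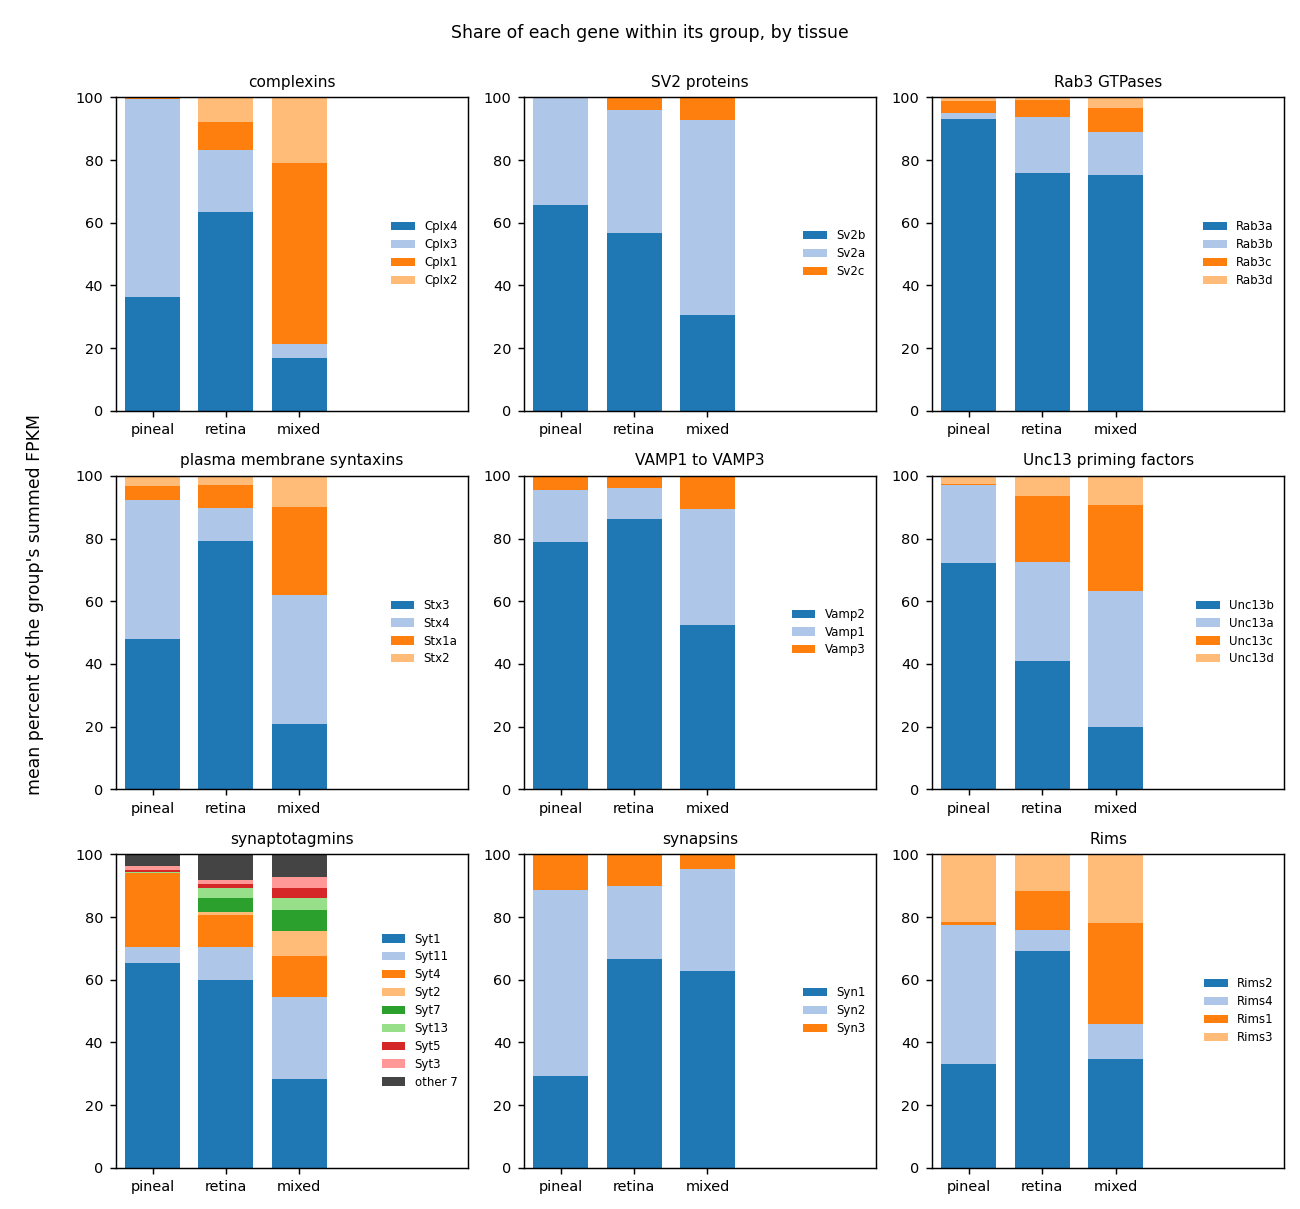
Stacked bars give the mean percent of a group's summed FPKM taken by each gene in pineal glands (6 libraries), retinas (6) and mixed pools (2). Cplx3 and Cplx4 fill the pineal complexin bar, Syn2 leads the pineal synapsins at 59.2% and Syn1 the retinal ones at 66.8%, and Rims4 takes 44.6% of the pineal Rims bar. The Syn1 share sums 2 transcripts that do not overlap, 1 of them of 453 bases.

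Most calcium sensors were lower in the pineal gland. Syt1, the sensor of fast release, averaged 128 ± 42 FPKM in pineal glands and 189.5 ± 18.1 in retinas (-0.63 ± 0.19, adjusted p = 0.00857), with 73.3 and 61.9 in mixed tissue. Syt7, a slow sensor of high calcium affinity, had 0 to 0.455 FPKM in pineal glands and 12.4 to 14.4 in retinas, and its log2 difference of -3.67 ± 0.09 (adjusted p = 3.84e-14) was the largest among the synaptotagmins. Syt2, a fast sensor of hindbrain and motor synapses, was listed at 0 in the pineal libraries of ZT1 and ZT19 and reached 0.35 FPKM at ZT13, against 2.75 to 3.47 in retinas and 22.9 and 15.2 in mixed tissue. These sensors were thus low or near 0 in the pineal gland while Syt1 stayed abundant. Syt2 and Syt7, like Cplx1 (2.11 FPKM), Cplx2 (1.51), Rims1 (0.39), Unc13c (0.184) and Rab3b (3.71), were highest in the pineal library of ZT13. Sv2c and Stxbp6 were highest at ZT15, and Syt12 and Syt13 at ZT23. The ganglion cell markers summed to 5.91 FPKM at ZT13 and 2.95 to 4.63 at the other pineal times. The part of such cells in the ZT13 values was not tested. Syt13 (-3.01 ± 0.11) and Syt15 (-2.95 ± 0.13), which do not bind calcium, averaged 0.406 and 0.441 FPKM in pineal glands and 10.3 and 10.1 in retinas. Syt9, a fast sensor found also on endocrine granules, averaged 5.64 ± 0.935 FPKM in pineal glands and 10.2 ± 1.15 in retinas (-0.76 ± 0.11). Syt3 (-0.7 ± 0.13), Syt5 (-1.2 ± 0.11), Syt6 (-0.81 ± 0.10), Syt11 (-1.64 ± 0.11), Syt12 (-1.42 ± 0.11) and Syt17 (-0.55 ± 0.06) were lower as well. Syt17 reached only 0.0631 FPKM in pineal glands and 0.739 in retinas. Syt4 was the member that did not pass, with a pineal mean of 48 ± 42.3 FPKM that spans its daily course and a retinal mean of 32.6 ± 1.82 (adjusted p = 0.977).

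Of the Unc13 priming factors, Unc13b (Munc13-2) led in the pineal gland with 14.6 to 24.8 FPKM, against 10.5 to 15.5 in retinas (0.58 ± 0.13, adjusted p = 0.00126), and gave 72.2% of the pineal Unc13 total. Unc13a (Munc13-1), the main priming factor of brain synapses, averaged 6.92 ± 2.85 FPKM in pineal glands and 10.3 ± 1.95 in retinas (-0.58 ± 0.21, adjusted p = 0.0226). This call was lost without the pineal library of ZT7, ZT13 or ZT15 or the retina library of ZT19. Unc13c (Munc13-3) had 0.0167 to 0.184 FPKM in pineal glands and 6.17 to 7.38 in retinas (-2.85 ± 0.06, adjusted p = 1.15e-14). Unc13d, the priming factor of blood cell granules, averaged 0.703 ± 0.118 FPKM in pineal glands and 2.09 ± 0.946 in retinas (-0.81 ± 0.16).

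Among active zone proteins Rims4, a short Rims form without the part that binds Rab3, had the highest pineal to retinal difference of all members. It had 8.26, 9.82 and 13.9 FPKM (lowest, median, highest) in pineal glands, against 1.74, 2.4 and 2.94 in retinas (1.8 ± 0.16, adjusted p = 6.73e-08). Rims1 and Rims2, the long forms, went the other way. Rims1 had 0.0347 to 0.39 FPKM in pineal glands and 3.96 to 5.06 in retinas (-2.21 ± 0.08), and Rims2 averaged 7.74 ± 2.91 FPKM in pineal glands and 25.2 ± 6.08 in retinas (-1.63 ± 0.23). Rims3, the other short form, did not pass (5.35 ± 2.46 FPKM in pineal glands, 4.11 ± 0.47 in retinas, adjusted p = 0.29). Pclo (piccolo), a scaffold of the active zone, averaged 2.71 ± 0.624 FPKM in pineal glands and 10.6 ± 1.21 in retinas (-1.65 ± 0.11). Its longer transcript (span 358040 bases) averaged 0.786 ± 0.485 FPKM in pineal glands and 8.36 ± 0.359 in retinas, and its shorter one (297509 bases) 1.93 ± 0.438 FPKM in pineal glands and 2.23 ± 1.32 in retinas. The shorter span lies inside the longer one, so the division of reads between them is uncertain. Bsn (bassoon), which anchors the ribbon at photoreceptor synapses, differed less (7.16 ± 2.17 FPKM in pineal glands, 10.7 ± 0.616 in retinas, -0.55 ± 0.13).

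On the vesicle side, Rab3a, the GTPase of synaptic and secretory vesicles, did not pass (115 ± 34.7 FPKM in pineal glands, 129 ± 21.1 in retinas, adjusted p = 0.338) and made up 93.1% of the pineal Rab3 total. Rab3b, its relative, had 0.946 to 3.71 FPKM in pineal glands and 23.5 to 39.1 in retinas (-3.32 ± 0.18, adjusted p = 3.36e-10). Rab3c was lower in the pineal gland (-1.02 ± 0.10) and Rab3d did not pass. SV2 proteins are vesicle glycoproteins of neurons and endocrine cells. Sv2a averaged 16.8 ± 4.1 FPKM in pineal glands and 59.4 ± 3.2 in retinas (-1.79 ± 0.13), and Sv2b 33.9 ± 11.8 FPKM in pineal glands and 86.1 ± 12.1 in retinas (-1.39 ± 0.21). Sv2c reached 0.134 FPKM at most in pineal glands and averaged 5.83 ± 0.487 in retinas (-2.69 ± 0.09). Synapsins tie vesicles into the reserve pool of conventional synapses and are largely missing from ribbon synapses. Syn1 averaged 7.99 ± 1.8 FPKM in pineal glands and 24.4 ± 3.34 in retinas (-1.52 ± 0.13). Its value sums 2 listed transcripts that do not overlap. The longer (span 43918 bases) averaged 4.95 ± 1.99 FPKM in pineal glands and 12.8 ± 3.31 in retinas. The other, of only 453 bases, averaged 3.04 ± 0.802 FPKM in pineal glands and 11.7 ± 1.36 in retinas. Syn2 was higher in the pineal gland (15.9 ± 2.44 FPKM, against 8.44 ± 0.978 in retinas, 0.84 ± 0.10), and Syn3 did not pass (adjusted p = 0.104).

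Against the mixed pools, 48 of 67 members differed for the pineal gland (64.8% of all tested genes), 14 higher (19.8%) and 34 lower (45%). For the retina 42 of 67 differed (65%), 15 higher (18.4%) and 27 lower (46.6%). The splits depend on the scale of the libraries, and those of all 11656 tested genes moved too. After median ratio scaling 20 members were higher and 31 lower for the pineal gland, beside 3540 and 4553 of all genes. For the retina 26 were higher and 20 lower, beside 3768 and 4350 of all genes. After quantile normalization 23 were higher and 26 lower for the pineal gland (5281 and 3474 of all genes). For the retina 28 were then higher and 18 lower (5213 and 3540 of all genes). As deposited, the median log2 difference of all tested genes was itself -0.25 for pineal gland minus mixed and -0.30 for retina minus mixed. Cplx3 was the highest in both, at 4.65 ± 0.16 for the pineal gland (adjusted p = 8.3e-13) and 2.92 ± 0.16 for the retina (adjusted p = 3.59e-10). Other high differences in the pineal gland were those of Unc13b (2.08 ± 0.19), Cplx4 (2.06 ± 0.19), Rims4 (1.58 ± 0.22), Stxbp4 (1.33 ± 0.14), Snap25 (1.3 ± 0.16) and Stx3 (1.3 ± 0.21). Next in the retina came Cplx4 (2.79 ± 0.19), Stx3 (2.5 ± 0.21), Syt15 (2.13 ± 0.19), Sv2b (1.84 ± 0.30), Unc13b (1.49 ± 0.19), Syt1 (1.47 ± 0.27) and Rims2 (1.34 ± 0.32). Cplx3, Cplx4, Stx3 and Unc13b were thus among the 8 highest in both tissues.

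Among the lowest against mixed tissue in the pineal gland were Cplx1 (-5.73 ± 0.24), Cplx2 (-4.24 ± 0.19), Syt2 (-4.21 ± 0.14), Syt7 (-3.91 ± 0.13), Rims1 (-3.02 ± 0.12), Rab3b (-2.9 ± 0.26) and Stxbp6 (-2.82 ± 0.15). In the retina they were Syt2 (-2.23 ± 0.14), Syt17 (-2.02 ± 0.08), Vamp1 (-1.83 ± 0.11), Cplx1 (-1.75 ± 0.24), Vamp8 (-1.57 ± 0.20), Rab3d (-1.46 ± 0.16), Vamp3 (-1.25 ± 0.13) and Stxbp6 (-1.2 ± 0.15). Syt17 passed the filter only through the mixed pools (5.42 and 4.82 FPKM, against 0.739 at most in retinas). Its lower values against mixed tissue, counted above for both tissues, were therefore fixed by the filter. The retina is 1 of the pooled tissues, and the rod markers reached 1276 to 1662 FPKM in mixed tissue, so retinal RNA enters each mixed value. Oligodendrocyte markers summed to 4.03 to 14.1 FPKM in pineal glands, 6.72 to 9.15 in retinas and 3386 to 3890.0 in mixed tissue, which holds brain and spinal cord.

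Whether these genes follow the day was asked with a 24-h cosine and sine fitted to each tissue on the log2 scale, with the fitted range (peak to trough) as the size (limma F test, adjusted over 10416 genes). 66 members were tested, since Syt17 passed the filter only through the mixed pools. In the pineal gland 17 of 66 passed the threshold, where 20.7% of all tested genes did. Of these, 12 had a fitted peak in the light (14.1% of all tested genes) and 5 in the dark (6.61%). After median ratio scaling 7 members had a light peak and 9 a dark peak, beside 1104 and 1008 of all tested genes. Of the 17 fitted peaks 11 (64.7%) lay between ZT7 and lights off at ZT14, a window that held 55.3% of the 2160 genes past the threshold in the pineal gland, and 4 (23.5%) lay between ZT22 and ZT24, against 11.2% of those genes. After median ratio scaling the members' counts in these windows were 5 and 6 of 16, beside 34.3% and 18.1% of all genes past the threshold. As deposited, the remaining peaks were those of Snap91 at ZT0.32 and Stx3 at ZT15.1. The retina had 1 member past the threshold, with a light peak, where 1.02% of all tested genes passed and 0.701% did so with a light peak (16 members had an unadjusted p under 0.05). Both tissues were fitted together, with a shared error per gene. With each tissue fitted alone, fewer members passed for the pineal gland and more for the retina, and the counts were close. The gap between 17 and 1 therefore does not show that more members are rhythmic in the pineal gland. The median fitted range was 0.37 over the members in the pineal gland (0.39 over all tested genes) and 0.29 in the retina (0.31 over all).

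**Figure D4:**
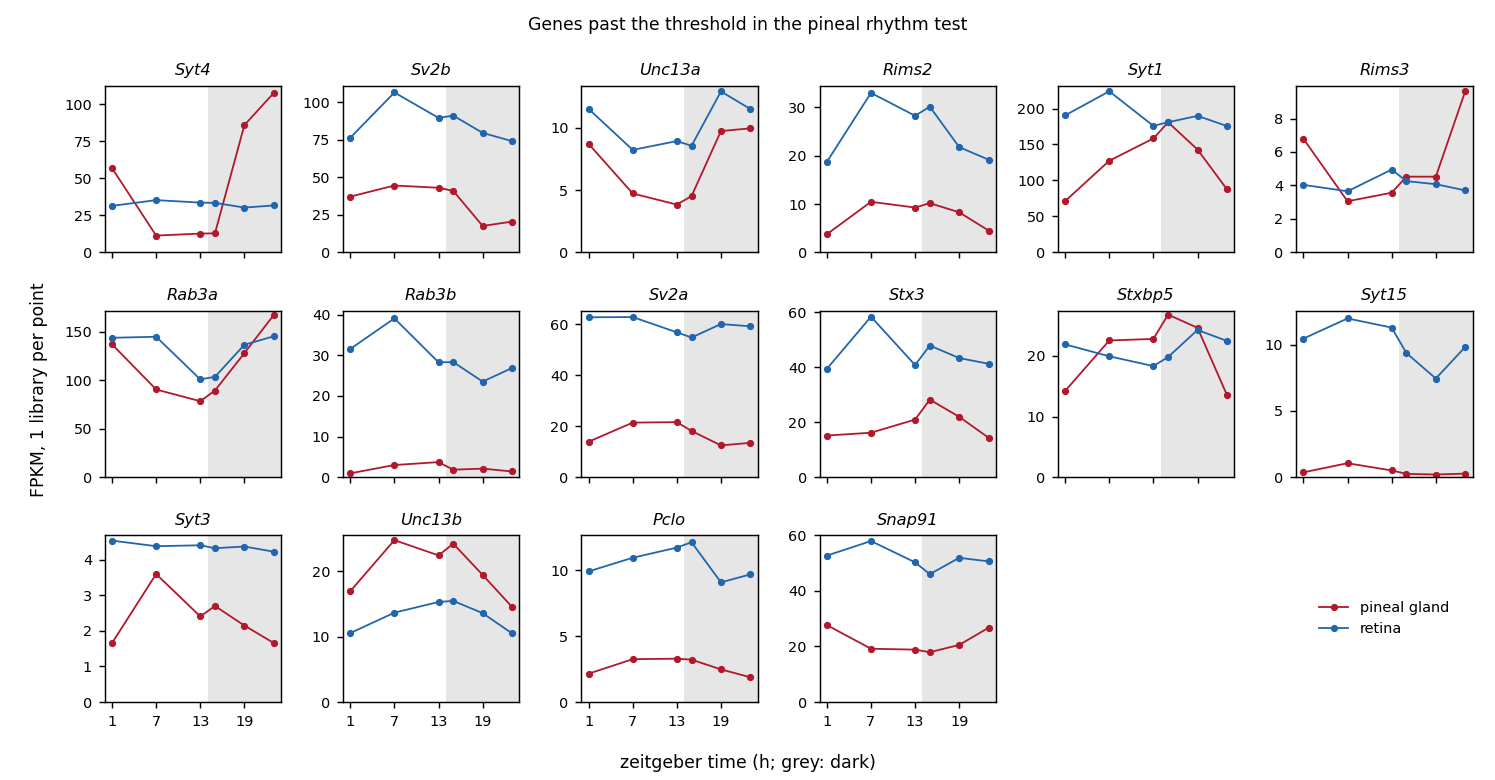
FPKM of 16 genes past the threshold in the pineal rhythm test is plotted against zeitgeber time, pineal gland in red and retina in blue, with 1 library per point and the dark phase in grey. Syt4 reaches 108 FPKM at the end of the night in the pineal gland and stays between 30.3 and 35.3 in the retina.

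Syt4, a synaptotagmin of dense core vesicles (chr18:23805080-23814489, rn4), had the widest course of all members. Its pineal FPKM was 57 at ZT1, 11.3 at ZT7, 12.7 at ZT13, 12.8 at ZT15, 86 at ZT19 and 108 at ZT23. It was still low 1 h after lights off and high from ZT19 to 1 h after lights on. The fitted range was 3.73 with a peak at ZT22 (adjusted p = 0.000107). In the retina the values at the same times were 31.4, 35.3, 33.6, 33.4, 30.3 and 31.7 FPKM, with no such course. The rhythm of Syt4 differed between the tissues (F test of the difference, adjusted p = 0.0023, where 4.95% of all tested genes and 3 members passed), although this call was lost without the retina libraries of ZT1 and ZT19 together (adjusted p = 0.0602).

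Rab3a, Unc13a and Rims3 also peaked in the last hours of the night. Rab3a had 137, 90.5, 78.4, 89.5, 128 and 168 pineal FPKM from ZT1 to ZT23 (range 1.05, peak ZT22.9, adjusted p = 0.00155), highest at ZT23 and lowest at ZT13. Unc13a had 8.72, 4.73, 3.84, 4.52, 9.75 and 9.96 pineal FPKM (range 1.35, peak ZT22.5, adjusted p = 0.000919), so that the 3 libraries from ZT19 to ZT1 lay above the 3 from ZT7 to ZT15. Rims3 had 6.79, 3.05, 3.56, 4.53, 4.52 and 9.63 pineal FPKM (range 1.14, peak ZT22.5, adjusted p = 0.021) and lost its call without the pineal library of ZT23 (adjusted p = 0.111) or of ZT13 (adjusted p = 0.0517). In the retina Rab3a had a fitted range of 0.54 with a peak at ZT1.86 (adjusted p = 0.101), and Unc13a one of 0.62 with a peak at ZT21.6 (adjusted p = 0.125), neither past the threshold. Snap91, the clathrin assembly protein, was highest at ZT1 (27.7 FPKM) and ZT23 (26.8 FPKM) and between 17.9 and 20.6 FPKM at the other pineal times, and its call was lost without the library of ZT1 (adjusted p = 0.0557) or of ZT23 (adjusted p = 0.075).

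The 250 bases before the start of Syt4, Rab3a, Unc13a and Rims3 are shown because these 4 genes had their fitted peaks between ZT22 and ZT24 (RefSeq, GRCr8, on the gene's strand). Capitals mark the core of the cyclic AMP response element, TGACG, in the first 3, here as its reverse complement CGTCA. The Rims3 stretch does not hold the core, and its capitals mark a TAATCC. Cyclic AMP carries the nightly noradrenergic signal in the pineal gland.

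Syt4: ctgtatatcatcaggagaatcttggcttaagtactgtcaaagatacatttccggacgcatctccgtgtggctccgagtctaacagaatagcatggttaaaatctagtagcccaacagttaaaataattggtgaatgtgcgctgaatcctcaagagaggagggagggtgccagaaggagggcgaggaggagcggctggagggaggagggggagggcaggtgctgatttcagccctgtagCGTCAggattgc

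Rab3a: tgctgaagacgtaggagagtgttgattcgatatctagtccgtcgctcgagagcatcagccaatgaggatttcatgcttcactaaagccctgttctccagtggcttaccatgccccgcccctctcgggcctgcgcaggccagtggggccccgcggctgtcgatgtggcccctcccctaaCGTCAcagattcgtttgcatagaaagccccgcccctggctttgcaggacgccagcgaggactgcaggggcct

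Unc13a: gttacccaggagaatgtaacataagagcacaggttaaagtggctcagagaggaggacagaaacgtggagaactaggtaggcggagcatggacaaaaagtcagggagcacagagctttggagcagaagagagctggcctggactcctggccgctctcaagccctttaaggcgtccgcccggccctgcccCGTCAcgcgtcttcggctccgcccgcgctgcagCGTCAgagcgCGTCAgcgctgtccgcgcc

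Rims3: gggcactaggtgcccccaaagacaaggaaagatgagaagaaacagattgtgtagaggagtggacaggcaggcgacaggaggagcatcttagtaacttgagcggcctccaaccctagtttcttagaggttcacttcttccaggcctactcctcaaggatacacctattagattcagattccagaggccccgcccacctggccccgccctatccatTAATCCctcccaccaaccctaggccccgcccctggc

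These stretches lie at chr18:23320864-23321113 for Syt4, chr16:18722274-18722523 for Rab3a and chr16:18415787-18416036 for Unc13a on the minus strand, and at chr5:139714070-139714319 for Rims3 on the plus strand. The core began at position -12 from the start of Syt4, at -72 from that of Rab3a, and at -62, -29 and -19 from that of Unc13a. Searched on both strands of the same 250 bases, TGACG was held by 18.22% of the promoters in the table and by 15 of the 57 members with an entry. Among the pineal rhythmic members it was held by 3 of the 5 with a dark peak and by 1 (Rab3b) of the 9 with a light peak that had an entry. Its share among all rhythmic pineal genes was not counted. Nor was the split repeated after median ratio scaling, which changed the numbers of light and dark peaks. Binding was not measured, and the part of these sites in the time of the peaks was not tested. The full element TGACGTCA, which contains the core, was held by 1.59% of promoters and by 2 members, Vamp1 and Syn1, neither of which passed the rhythm test. No entry was found for Snap25.

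Syt1 had 71.2, 127, 158, 181, 143 and 87.7 pineal FPKM from ZT1 to ZT23 (range 1.18, peak ZT13.6, adjusted p = 0.00232), lowest at ZT1 and highest just after lights off. In the retina it lay between 176 and 224 FPKM, and the rhythms differed between the tissues (adjusted p = 0.0246), a call that 10 of 20 alternatives kept. It was lost without any 1 of the pineal libraries of ZT1 and ZT23 and the retina libraries of ZT1, ZT7, ZT13, ZT15 and ZT23, with adjusted p values up to 0.0921. The vesicle glycoproteins Sv2a and Sv2b both peaked by day. Sv2a had 13.9, 21.4, 21.6, 18.1, 12.5 and 13.5 pineal FPKM (range 0.88, peak ZT9.55, adjusted p = 0.00136), against 54.8 to 62.8 in the retina (difference in rhythm, adjusted p = 0.0166, lost without the pineal library of ZT13 or any 1 of the retina libraries of ZT1, ZT7, ZT13 and ZT23). Sv2b had 37.1, 44.5, 43, 40.9, 17.6 and 20.5 pineal FPKM (range 1.36, peak ZT8.73, adjusted p = 0.0183), so that ZT19 and ZT23 lay below all other times, and its rhythm call was lost without the pineal library of ZT13 (adjusted p = 0.0539) or of ZT23 (adjusted p = 0.0751).

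In the Rims and Unc13 families, Rims2 and Unc13b had their pineal peaks by day, while Rims3 and Unc13a had theirs at the end of the night. The difference between such relatives was not tested. Rims2 had 3.74, 10.5, 9.26, 10.2, 8.28 and 4.5 FPKM (range 1.19, peak ZT11.9, adjusted p = 0.0125), with its low values at ZT1 and ZT23, where its short relative Rims3 was highest. Unc13b had 17, 24.8, 22.4, 24.2, 19.4 and 14.6 FPKM (range 0.67, peak ZT10.8, adjusted p = 0.0148), lowest at ZT23 and ZT1, where Unc13a was high. Without the pineal library of ZT23 the calls of Rims2 (adjusted p = 0.0631) and Unc13b (adjusted p = 0.0934) were lost, and that of Unc13b was lost after median ratio scaling too (adjusted p = 0.0664). The share of Unc13a in the pineal Unc13 total averaged 25% with an SD of 11.1 percentage points over the 6 times.

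The other day-peaking members were Pclo (1.88 to 3.29 FPKM, peak ZT11), Stxbp5 (13.6 to 26.8, peak ZT13.2), Rab3b (0.946 to 3.71, peak ZT11), Syt3 (1.66 to 3.6, peak ZT9.65) and Syt15 (0.20 to 1.05, peak ZT7.33). After median ratio scaling Pclo (adjusted p = 0.057), Stxbp5 (adjusted p = 0.0607), Rab3b (adjusted p = 0.067) and Syt3 (adjusted p = 0.134) no longer passed. All 5 lost their calls without the pineal library of ZT23, Stxbp5, Rab3b and Syt3 also without that of ZT1, Rab3b without that of ZT13 and Syt3 without that of ZT15. Without the pineal library of ZT7 the range of Syt15 was 0.55 (adjusted p = 0.331). Stx3, the ribbon syntaxin, was highest just after lights off (28.2 FPKM at ZT15) and lowest at ZT23 (14.3 FPKM), and its call was lost without either of those libraries. Syt3 had the weakest call (adjusted p = 0.0463) and kept it in 6 of 20 alternatives. Syt4, Unc13a, Sv2a, Rab3a and Syt1 passed in all 21 alternatives tried, and 6 members passed without the pineal library of ZT23. Ttr, a marker of pigment epithelium and choroid plexus, was 3566 FPKM in the pineal library of ZT15 and 664 to 1152 at the other times, and the part of such tissue in the ZT15 values was not tested. No VAMP protein, complexin or synapsin passed in either tissue (6, 4 and 3 tested, limma F test). In simulated data the pineal fit called only 34 of 100 rhythms with a range of 1. There 10375 genes held few rhythms, beside 2160 genes called in the real data, so the adjusted threshold was stricter. That share thus does not measure what was missed here. All 8 members with a fitted range of 1 or more passed, and smaller rhythms can be missed.

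**Figure D5:**
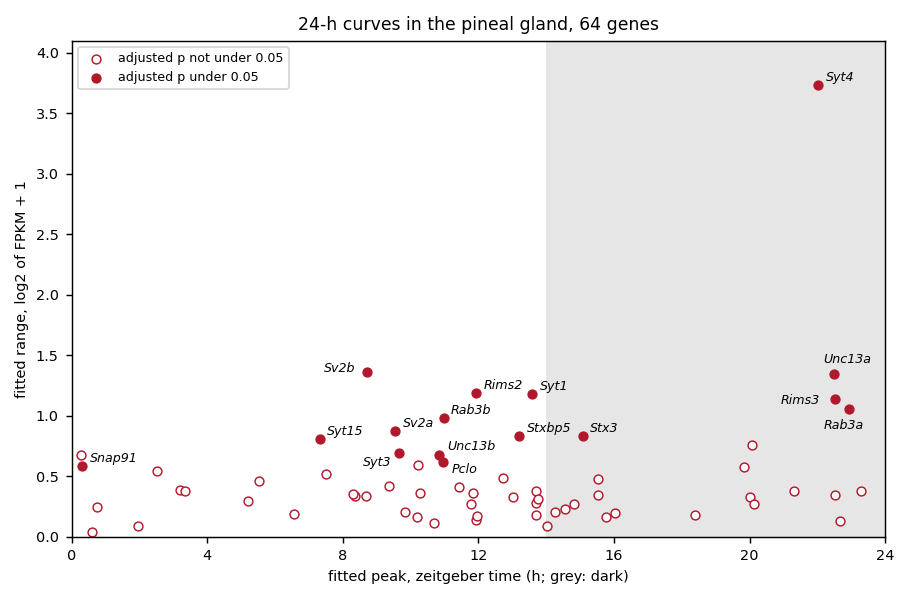
Fitted range (log2 of FPKM + 1) is plotted against the fitted peak time for 64 genes in the pineal gland, with filled points where the adjusted p was under 0.05 and the dark phase in grey. Of the 16 filled points 10 lie between ZT7 and ZT14 and 4 between ZT22 and ZT23, where Syt4 stands alone at 3.73.

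Late dark (ZT19 and ZT23) was also set against light (ZT1, ZT7 and ZT13), with ZT15 given its own mean. In the pineal gland 3 of 66 members passed, where 7.28% of all tested genes did: Syt4 and Bsn were higher in late dark (3.04% of all tested genes) and Sv2b was lower (4.23%). Sv2b averaged 19 ± 2.07 FPKM in late dark and 41.5 ± 3.91 in light (SD, n = 2 and n = 3 libraries), without overlap, a log2 difference of -1.09 ± 0.15 (limma, adjusted p = 0.00265). Syt4 averaged 97 ± 15.4 FPKM in late dark and 27 ± 26 in light (2.19 ± 0.50, adjusted p = 0.0265), where the light group held the ZT1 value of 57. Bsn averaged 9.47 ± 2.67 FPKM in late dark and 5.9 ± 0.413 in light (0.58 ± 0.15, adjusted p = 0.0392). The Syt4 call held in 13 of 22 alternatives and the Bsn call in 10 of 22, and none of the 3 passed when ZT15 was grouped with late dark. The Syt4 call was lost without any 1 of the pineal libraries of ZT7, ZT13, ZT19 and ZT23 or the retina library of ZT13. The Bsn call was lost without any 1 of the pineal libraries of ZT7, ZT13 and ZT19 or the retina libraries of ZT1, ZT7, ZT13, ZT19 and ZT23.

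In the retina 0 of 66 members passed by limma, where 0.0096% of all tested genes did, and 4 members had an unadjusted p under 0.05. Unc13d, the granule priming factor, had 3.68 FPKM at ZT19 and 2.8 at ZT23, against 1.4 to 1.8 in light (0.74 ± 0.13, adjusted p = 0.116). The test of a difference between the tissues in this contrast passed for 0 members by limma (0.71% of all tested genes, 0.566% with the higher change in the pineal gland), and 6 had an unadjusted p under 0.05.

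Partner genes of the release machinery, taken from pathway lists, were counted in the same fits. Of 26 tested partners in priming, calcium sensing and the active zone, 6 were higher in the pineal gland than in the retina and 16 lower. Over all tested genes 36.9% were higher and 32% lower, and each of the counts that follow stands beside these shares. The higher ones were led by Rab27a, a GTPase of secretory granules (25.5 ± 4.2 FPKM in pineal glands and 3.14 ± 0.559 in retinas, 2.68 ± 0.11), and its effectors Sytl4 (2.37 ± 0.12) and Sytl1 (1.44 ± 0.08). The lowest were the Rab3 effector Rph3a (0.346 ± 0.192 FPKM in pineal glands and 26.9 ± 0.827 in retinas, -4.39 ± 0.10), the scaffold Lin7a (-4.21 ± 0.11) and Doc2b, a calcium sensor of spontaneous release (-4.1 ± 0.09). Of 14 genes of dense core vesicles and granules, 6 were higher and 6 lower. Chga (chromogranin A) averaged 587 ± 108 FPKM in pineal glands and 24.6 ± 2.9 in retinas (4.51 ± 0.13), and Ptprn, a granule membrane protein, 864 ± 204 FPKM in pineal glands and 53.2 ± 22.1 in retinas (4.06 ± 0.25). The prohormone convertases Pcsk1 (-2.47 ± 0.09) and Pcsk2 (-3.1 ± 0.10) and the peptide precursor Vgf (-2.66 ± 0.25) were lower. Of 10 vesicle membrane proteins 5 were higher and 2 lower. Syp (synaptophysin) averaged 678 ± 70.8 FPKM in pineal glands and 314 ± 42.4 in retinas (1.11 ± 0.12), while its relative Synpr averaged 0.23 FPKM in pineal glands and 46.4 in retinas (-5.27 ± 0.08).

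Of 8 vesicular transmitter transporters, 3 were higher in the pineal gland and 4 lower (36.9% and 32% of all tested genes). The glutamate transporters Slc17a6 (55.1 ± 41 FPKM in pineal glands, 12.2 ± 0.898 in retinas, 1.77 ± 0.36) and Slc17a7 (397 ± 45.5 FPKM in pineal glands, 284 ± 23.4 in retinas, 0.47 ± 0.10) were higher, and Slc32a1, which loads inhibitory transmitter, was the lowest (0.0418 FPKM in pineal glands, 25.6 in retinas, -4.68 ± 0.10). Of 10 genes known from ribbon synapses 4 were higher and 5 lower, with Nyx (1.46 ± 0.18) and the calcium channel subunit Cacna1d (1.07 ± 0.13) above and Grm6, the receptor of ON bipolar cells (-3.72 ± 0.14), and the channel regulator Cabp4 (-2.44 ± 0.25) below. Of 19 endocytosis genes 7 were higher, led by the dynamin Dnm2 (2.19 ± 0.38) and the clathrin light chain Cltb (2.14 ± 0.10), and 7 lower, led by Pacsin1 (-2.69 ± 0.13), shares close to those of all tested genes. Of 8 genes of SNARE disassembly and chaperones 1 was higher, Napa (0.61 ± 0.10), and 6 lower, led by the synuclein Sncg (-5.68 ± 0.12). Sncg also marks ganglion cells.

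In the pineal rhythm test 7 of 10 ribbon synapse genes passed, 5 with a light peak and 2 with a dark peak. The counts were 4 of 8 for SNARE disassembly and chaperones, 8 of 24 for priming and active zone partners, 4 of 19 for endocytosis, 2 of 14 for dense core vesicles, 2 of 8 for transporters and 0 of 9 for vesicle membrane proteins (limma F test), beside 20.7% of all tested genes. The widest courses with a dark peak were those of Elfn1, a synaptic adhesion protein of photoreceptors (range 3.31, peak ZT21.5, adjusted p = 0.000816), Dnm2 (range 2.72, peak ZT23, adjusted p = 1.29e-05) and Slc17a6 (range 2.67, peak ZT21.4, adjusted p = 0.00116). The widest with a light peak were those of the granule protein Scg2 (range 1.87, peak ZT0.62, adjusted p = 0.00179), Cabp4 (range 1.52, peak ZT4.05, adjusted p = 0.0215) and the active zone liprin Ppfia2 (range 1.49, peak ZT10.3, adjusted p = 0.000458). In late dark against light, Elfn1 (2.22 ± 0.36), Slc17a6 (1.71 ± 0.34) and the Rab3 partner Rab3ip (0.75 ± 0.17) were higher and Ppfia4 (-0.59 ± 0.15) and Rab3il1 (-0.5 ± 0.13) lower in the pineal gland. By list, 3 of 24 priming and active zone partners, 1 of 10 ribbon synapse genes and 1 of 8 transporters passed, beside 7.28% of all tested genes. Unlike those of the members, the time calls of these partners were not followed gene by gene with libraries left out or rescaled.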

How the data were processed

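Total RNA was enriched for poly(A), primed at random and sequenced as paired 101-base reads, per the labels' protocols. The deposited table gives FPKM per RefSeq transcript on rn4. TopHat 1.3.1 and Cufflinks 1.2.0 are named in the submitters' processing notes. Which strand was read is not given in the sources used here. Genes overlapping on opposite strands therefore cannot be told apart, and read counts were not used here, so depth is known only roughly. FPKM was summed per gene, and 72 members were taken by symbol. Genes with at least 1 FPKM in at least 2 libraries were fitted with limma 3.58.1 (R 4.3.3, trend) on log2(FPKM + 1), which understates changes of low genes. Tissue fits used 14 libraries, and rhythm and phase fits used the 12 of pineal gland and retina, adjusted over all genes tested. Within a fit, a gene thus had the same error for all tissues. Fits were checked on simulated data. Of 100 genes given a log2 tissue difference of 1, 95 were called, and of 100 given a late dark change of 1, 78. Of 100 given a pineal rhythm with a range of 1 only 34 were called, and 92 with a range of 2. Far fewer genes were changed in each simulation than were called in the real data, so the adjusted threshold was stricter there. The shares recovered therefore do not measure what the real tests miss. A rhythm test without a call leaves small ranges undecided. The labels do not say whether each pool was extracted more than once, and each library counted as 1 sample. Named genes are the 8 most abundant members per tissue, the 8 highest and 8 lowest differences per tissue contrast, members past the threshold in the time tests, and listed SNAREs, sensors, complexins and active zone genes whatever their values. The syntaxins of internal membranes, Stxbp3 to Stxbp5 and the smaller synaptotagmins were added to complete their families after their values were seen. Alternatives were another pseudocount, no filter or one of 5 FPKM, no mean-variance trend, the most abundant transcript alone, median ratio scaling, quantile normalization, libraries left out, zeitgeber time as a block and single tissues. Some genes are not reported here by name or value but stay in the fits and counts. Members and lists were chosen with earlier results of these data known.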

Additional observations from a re-analysis of the deposited data

Results flagged for a closer look

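In 7 of 115 groups of 6 libraries, 1 library stood far from the other 5, and chance gives about 1 in 20 such groups. In the pineal gland Vamp3 had 13.91 FPKM at ZT13 (10.72 to 11.67 in the others) and Cplx4 had 142.3 FPKM at ZT15 (103.5 to 114.1). In the retina of ZT7, Syt1 had 224.0 FPKM (175.7 to 190.5 in the others), Syn1 had 30.91 (22.15 to 25.02) and Syn2 had 10.4 (7.694 to 8.198). That library also had the highest summed FPKM of the retinas, 179277 against 152281 to 161184, and its part in these values was not tested. In the retina of ZT19, Snap23 had 4.825 FPKM (7.121 to 8.46 in the others), and in the retina of ZT23 Syt13 had 8.16 (10.23 to 11.6). The retina library of ZT19 held the most lens RNA (984 FPKM), and its part was not tested.

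The fitted 24-h rhythm differed between pineal gland and retina for Syt4 (adjusted p = 0.002302, limma F test), Sv2a (adjusted p = 0.01661) and Syt1 (adjusted p = 0.02462).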

How the results depend on the processing

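Counts of called members by tissue were 50 to 53 for pineal gland minus retina, 42 to 50 for pineal gland minus mixed and 34 to 45 for retina minus mixed with 1 library left out, and 53 with zeitgeber time as a replicate block in pineal gland minus retina. Over all genes the counts with 1 library left out were 7668 to 8152, 5292 to 7678 and 5210 to 7799, of 10582 to 11649 tested. With the ZT7 and ZT19 libraries alone the called members were 41 (9 of them higher in the pineal gland, beside 16 with all libraries), 39 for pineal gland minus mixed and 29 for retina minus mixed. Over all 11492 genes tested there, 4304 (1982 of them higher), 5764 and 5428 were called. Of the calls with all libraries 40 of 53, 35 of 48 and 28 of 42 passed in every alternative run. Over all genes this was not counted. Time of day rests on single libraries. With 1 library left out, the pineal rhythm gave 6 to 21 members, the retinal rhythm 0 to 2, the difference in rhythm 1 to 7, late dark minus light 1 to 9 in the pineal gland and 0 to 1 in the retina, and its difference between the tissues 0 to 3. For the pineal rhythm, the 6 came without the pineal library of ZT23, where 889 of 10393 genes passed. The 21 came without that of ZT7, where 2620 of 10390 genes passed. With that tissue fitted alone the counts were 6 for the pineal rhythm, 7 for the retinal rhythm and 1 for pineal late dark. Without the retina libraries of ZT1 and ZT19 they were 10 for the pineal rhythm, 0 for the retinal rhythm, 0 for the difference and 1 for pineal late dark. Pineal late dark gave 1 with no filter and 0 with ZT15 grouped, and the difference in late dark gave 1 with median ratio scaling. Except for the pineal rhythm with 1 library left out, these time counts stand without those of all genes. They show how far the calls depend on the processing, not whether members differ from other genes. The cause was not tested. Quantile normalization, which moved the median of all genes against mixed tissue to 0.22 for the pineal gland and 0.19 for the retina, reversed 12 differences. For pineal gland minus mixed these were Unc13d (0.46), Stx2 (0.037), Snap47 (0.27), Syt15 (0.37), Vamp4 (0.26), Syt6 (0.59), Stxbp2 (0.0341) and Vamp8 (0.56). For retina minus mixed they were Syt12 (0.0808), Stx2 (0.10), Stx17 (0.32) and Rims4 (0.63). Values under about 0.05 FPKM rest on 1 fragment or fewer in a transcript of 1 kb, so differences among the genes near 0 were not detectable.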
